A study of Mus musculus with 18 samples.

Results

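Nat10 and 9 other genes that write, remove or read RNA modifications were measured in libraries labelled as thalamus of wild-type mice. The 10 genes were chosen by symbol from the 50559 rows of the count table: the acetyltransferase Nat10, its adaptor Thumpd1, the m6A methyltransferase subunits Mettl3, Mettl14 and Wtap, the demethylases Fto and Alkbh5, and the readers Ythdf1, Ythdf2 and Ythdf3. The 18 libraries fell into 3 groups of 6. The intervene group received Coll IV and remodelin, the model group received Coll IV alone, and the control group received saline. All mice were of the wild-type genotype. The series title names thalamic hemorrhage and describes remodelin as an inhibitor of NAT10. The labels do not spell out Coll IV, and they give no strain, age, sex, dose or time after treatment. They do not state that each library came from a separate mouse, so p-values measure only the spread between these samples.

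NAT10 transfers an acetyl group to the N4 position of cytidine (ac4C) in 18S ribosomal RNA, transfer RNA and some messenger RNAs, and it works in the nucleolus on the small-subunit precursor of the ribosome. N6-methyladenosine (m6A), an abundant internal mark of messenger RNA, is placed by a METTL3 and METTL14 heterodimer with WTAP, removed by FTO and ALKBH5, and bound in the cytoplasm by the YTHDF proteins. In brain these marks are studied for their part in neuronal mRNA turnover, local translation and the response to injury. Counts of mRNA measure none of the enzyme activities, so an inhibitor of NAT10 need not show in the Nat10 values.

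RefSeq promoter sequences were matched for 8 of the 10 genes, and those of Mettl14 and Ythdf3 are named only. The 3 shown are the promoter of the gene whose product remodelin is directed against and those of the writer and the demethylase with called differences between libraries. Each runs 5′ to 3′ from 250 bases before to 50 bases after the annotated start on the gene's own strand (build GRCm38.p6). Capitals mark matches to any of 6 motifs searched on both strands and chosen after the sequences were seen. The TATA box was searched as TATAAA, the CCAAT box by the letters of its name and the GC box as GGGCGG. The core of ETS sites was searched as CCGGAAG, the cAMP response element as TGACGTCA and the core of YY1 sites as ATGGCGG.
Nat10 promoter, chr2:103761221-103761520, minus strand: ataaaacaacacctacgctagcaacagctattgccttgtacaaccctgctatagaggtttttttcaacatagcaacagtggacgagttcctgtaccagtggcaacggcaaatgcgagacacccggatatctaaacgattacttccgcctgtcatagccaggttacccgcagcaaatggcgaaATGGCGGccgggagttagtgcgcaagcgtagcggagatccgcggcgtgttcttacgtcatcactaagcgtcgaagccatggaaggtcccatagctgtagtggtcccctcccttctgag
Mettl3 promoter, chr14:52305075-52305374, minus strand: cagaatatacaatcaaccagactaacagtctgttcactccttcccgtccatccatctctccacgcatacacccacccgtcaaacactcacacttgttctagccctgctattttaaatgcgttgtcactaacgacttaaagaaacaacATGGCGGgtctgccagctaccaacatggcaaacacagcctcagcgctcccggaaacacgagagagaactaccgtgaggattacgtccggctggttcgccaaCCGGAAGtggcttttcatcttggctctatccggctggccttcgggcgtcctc
Alkbh5 promoter, chr11:60537433-60537732, plus strand: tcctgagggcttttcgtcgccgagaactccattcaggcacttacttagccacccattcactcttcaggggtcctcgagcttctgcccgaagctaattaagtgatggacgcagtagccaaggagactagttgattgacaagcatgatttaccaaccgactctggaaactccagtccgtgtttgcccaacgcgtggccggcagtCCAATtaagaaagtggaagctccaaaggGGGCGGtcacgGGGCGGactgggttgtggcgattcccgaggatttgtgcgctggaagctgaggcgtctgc
All 3 are rich in CpG dinucleotides, with 20, 17 and 18 in 300 bases, against a median of 7 over 32851 promoters of the same length. The Nat10 and Mettl3 windows both hold ATGGCGG, which 4.05% of all promoters hold, and the Mettl3 window also holds CCGGAAG, found in 8.86%. The Alkbh5 window holds CCAAT, found in 37.4% of promoters, and 2 copies of GGGCGG, found in 35.7%. No TATAAA was found in the 3 windows, against 13.6% of all promoters. The matches describe letters and no binding was measured.

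Depth was 28481225 to 118461420 counts per library. Control library 1 was the deepest and control library 5 had 56878946, while the other 16 libraries had at most 36361681. All 10 genes were among the 18452 that passed the filter on low counts, and the lowest count of any of them in any library was 355, for Mettl3. Libraries with the replicate numbers 4 to 6 differed from those numbered 1 to 3, a split seen in the data and not named in the labels. It was complete in the control group, where each library was nearer to both others of its set than to any library of the other set by the chi-square per degree of freedom between their counts. In the other groups it was not complete, since intervene library 4 was nearer to intervene library 3 (39.4) than to intervene libraries 5 (67.7) and 6 (77.8), and model library 1 was nearer to model library 5 (50.9) than to model libraries 2 (75.9) and 3 (58.9). Averaged over the groups, 49.6% of the 18452 genes tested differed between the sets at an adjusted p under 0.05 in edgeR's quasi-likelihood test. The markers of thalamic neurons, a list of 10 genes, summed to 255 to 355 CPM (counts scaled to the library's total and by TMM) in intervene libraries 4 to 6, against 373 to 401 in intervene libraries 1 to 3. The sums were 131 to 156 CPM in model libraries 4 to 6, against 301 to 492 in model libraries 1 to 3. In the control group they were 104 to 115 CPM in libraries 4 to 6, against 440 to 478 in libraries 1 to 3. Tcf7l2, a defining transcription factor of thalamic neurons, was present in every library but at only 3.82 to 5.05 CPM in control libraries 4 to 6. Markers of cortical and hippocampal pyramidal neurons, which the thalamus should hold at low levels, summed to 3565 to 7581 CPM in intervene libraries 4 to 6, 6380 to 8539 in model libraries 4 to 6 and 8418 to 9069 in control libraries 4 to 6. In libraries 1 to 3 they summed to 1881 to 4506 CPM in intervene, 2787 to 5128 in model and 645 to 4085 in control. The values of control and model libraries 4 to 6 thus go against the tissue label. Intervene libraries 4 to 6 had higher thalamic neuron sums than these, but a median pyramidal neuron sum of 6185 CPM, so they go against the label in part. Libraries 1 to 3 were not uniform either. The pyramidal neuron marker Slc17a7 had 861 CPM in model library 1, above the 512.5 CPM of intervene library 4. Choroid plexus markers summed to 53.2 to 10375 CPM in the libraries numbered 1 to 3 and 3.21 to 4075 CPM in those numbered 4 to 6. Which regions the libraries hold was not tested. Group comparisons are therefore given over all libraries and within each set. In bulk tissue, fewer cells of a type and less RNA per cell cannot be told apart.

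The first question was whether the mRNAs of these factors differed between the groups over all 6 libraries each. No difference passed the test, and the estimates were small. Of the 10 genes, 0 were called when intervene was set against model, 0 when intervene was set against control and 0 when model was set against control, in edgeR at an adjusted p of 0.05. The background was 0% of 18452 genes in each of the 3 comparisons, so the count says nothing particular about these genes. No member had an unadjusted p under 0.05, while 531, 1551 and 310 of all genes (2.88%, 8.41% and 1.68%) had one in the same order. The edgeR fit over all libraries had no term for the split between the sets, so its spread between libraries holds that split. Differences between groups that are small beside the split could be missed. With the replicate set as a term 0 members were called as well. DESeq2 called 2, 78 and 2 genes and limma-voom called 0, with no member among them.

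Nat10 ranged from 14.4 to 17.5 CPM in intervene libraries with a median of 16.2, from 14.3 to 19.2 with a median of 16.3 in model libraries, and from 15.4 to 19.4 with a median of 16.7 in control libraries. The 3 ranges lay almost on top of each other. Nat10 changed by -1.31% in intervene against model libraries, with a 95% interval of -12.7% to 11.5% (adjusted p = 0.992, edgeR). Intervene against control it changed by -5.45%, with an interval of -16.3% to 6.8% (adjusted p = 0.78, edgeR), and model against control by -4.2%, with an interval of -15.2% to 8.21% (adjusted p = 1, edgeR). Differences in Nat10 mRNA within these bounds could not be detected at this spread between libraries. Thumpd1, which helps NAT10 acetylate transfer RNA, had medians of 52.1 CPM in intervene, 57.1 in model and 54.8 in control libraries. Its ranges overlapped, from 50.2 to 60.3 CPM in intervene, 47.6 to 59.8 in model and 51.4 to 59.7 in control libraries. Its log2 fold changes were -0.06 for intervene over model, -0.06 for intervene over control and 0.00 for model over control, each with a standard error of 0.07.

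**Figure D1:**
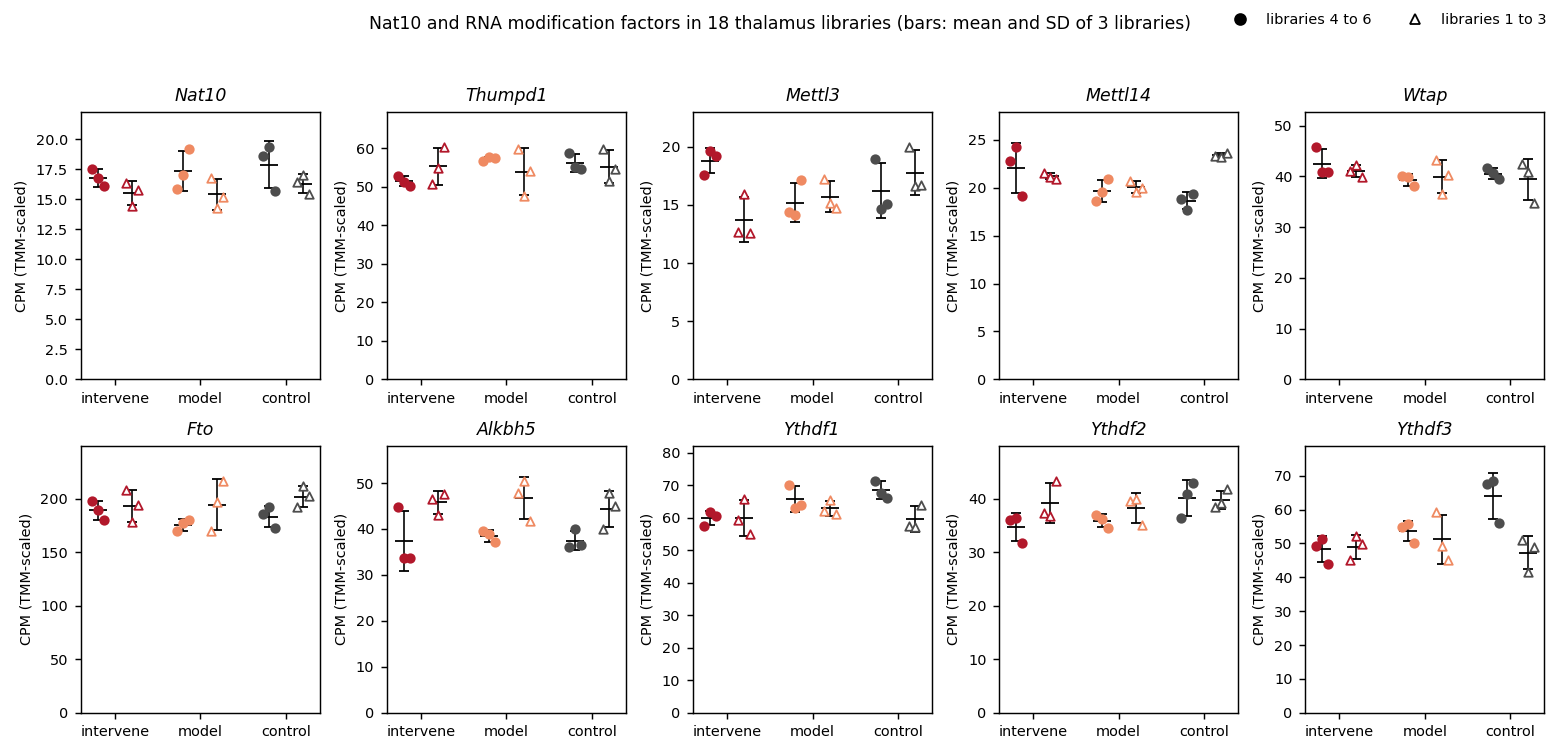
TMM-scaled CPM of each of the 10 genes (vertical axis from 0) in every library, by group on the horizontal axis. Filled circles are libraries 4 to 6, open triangles are libraries 1 to 3, and bars give the mean and SD of 3 libraries. Nat10 stays between 14.3 and 19.4 CPM throughout, while Ythdf3 in control libraries 4 to 6 (56.1 to 68.6 CPM) lies above the other sets except for 1 model library at 59.2 CPM.

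Of the m6A writers, Mettl3 spread more than Nat10, with an SD of log2 CPM of 0.202 against 0.124 over 18 libraries and 0.156 against 0.112 within group and set. Mettl14 had an SD of 0.133 over 18 libraries and 0.087 within group and set, so its order against Nat10 turned once the sets were taken apart. Mettl3, the catalytic subunit, ranged from 12.6 to 19.6 CPM in intervene libraries (median 16.8), from 14.1 to 17.2 in model libraries (median 15.0) and from 14.6 to 19.98 in control libraries (median 16.7). Mettl14, the partner that holds the RNA, ranged from 19.2 to 24.3 CPM in intervene (median 21.3), 18.6 to 20.9 in model (median 19.8) and 17.7 to 23.7 in control libraries (median 21.3). For both genes the ranges of the groups overlapped. Wtap, the regulatory subunit that brings the heterodimer to nuclear speckles, was the steadiest of the 10 over all 18 libraries. It had 39.8 to 45.8 CPM in intervene, 36.6 to 43.2 in model and 34.8 to 42.5 in control libraries. The SD of its log2 CPM over 18 libraries was 0.0879, and 99.2% of all genes tested had a larger one. Within group and set the SD of Wtap was 0.0931, above those of Ythdf1 (0.083) and Mettl14 (0.087).

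Fto, the demethylase first linked to body mass, was the gene with the most reads of the 10. It had 178 to 208 CPM in intervene libraries (median 192), 170 to 217 in model libraries (median 179) and 172 to 212 in control libraries (median 192). Alkbh5, a nuclear m6A demethylase, had 33.6 to 47.7 CPM in intervene (median 44.0), 37.1 to 50.5 in model (median 40.7) and 36.0 to 47.9 in control libraries (median 40.0). Neither eraser separated the groups.

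The 3 readers bind m6A through a YTH domain, and work on YTHDF2 in particular ties them to mRNA decay. Ythdf1 had 54.9 to 65.7 CPM in intervene libraries (median 59.8), 61.2 to 70.2 in model (median 63.5) and 57.2 to 71.5 in control libraries (median 65.1). Ythdf2 had 31.6 to 43.4 CPM in intervene (median 36.6), 34.6 to 40.0 in model (median 36.6) and 36.5 to 43.0 in control libraries (median 40.0). Ythdf3 had 44.0 to 52.3 CPM in intervene (median 49.5), 45.1 to 59.2 in model (median 52.5) and 41.7 to 68.6 in control libraries (median 53.6). All 3 reader medians were lower in intervene than in control libraries, but the ranges overlapped. Over all 6 libraries a group, 0 of the 10 genes had non-overlapping ranges in any of the 3 comparisons, against 0.211% of all genes in intervene against model, 0.488% in intervene against control and 0.13% in model against control. The log2 fold changes of intervene over control were -0.09 for Ythdf1, -0.11 for Ythdf2 and -0.19 for Ythdf3, with standard errors of 0.07, 0.07 and 0.11 (adjusted p = 0.683, 0.665 and 0.632, edgeR).

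**Figure D2:**
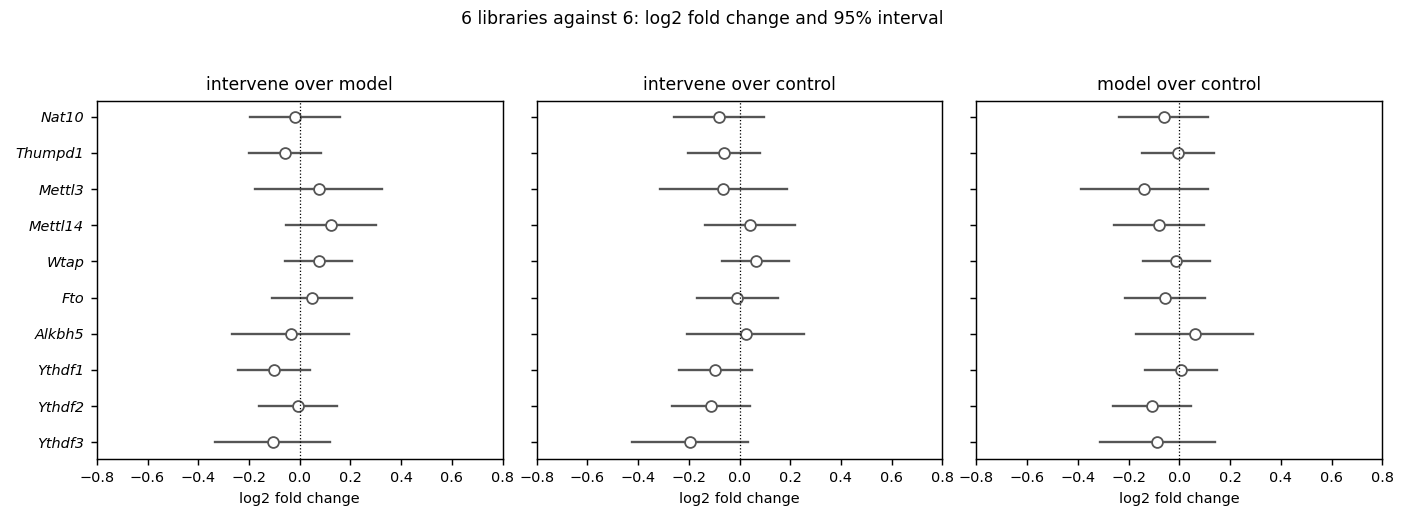
Log2 fold change (horizontal axis) of the 10 genes with its 95% interval, for intervene over model, intervene over control and model over control, 6 libraries each. Every interval includes 0, and the most distant bound is -0.42, for Ythdf3 in intervene over control.

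Over the 10 genes the median size of the log2 fold change was 0.07 for intervene over model, 0.06 for intervene over control and 0.06 for model over control. The same medians over all 18452 genes were 0.12, 0.15 and 0.09. The largest fold change of a member was 0.12, 0.19 and 0.14 in size. These genes also varied little between libraries as such: for 6 of the 10, at least 94.1% of all genes tested had a larger SD of log2 CPM, and the share was lowest for Mettl3 (73.5%), Ythdf3 (75.8%) and Alkbh5 (78.5%). Among 1000 genes of about the same level the share was 51.9% for Ythdf3, 56.2% for Alkbh5 and 61.3% for Mettl3, and 95.2% for Nat10.

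Within the sets, with 3 libraries a group, intervene set against control gave 1 called member in libraries 4 to 6, Ythdf3, against a background of 25.9% of genes called in either direction. Ythdf3 had 49.3, 51.4 and 44.0 CPM in intervene libraries 4, 5 and 6, against 67.5, 68.6 and 56.1 CPM in control libraries 4, 5 and 6. Each intervene library of the set lay below each control library. The log2 fold change was -0.41 ± 0.11 (SE, n = 3 each; adjusted p = 0.0152, edgeR). Without control library 4, control library 5 or intervene library 6 the adjusted p was 0.0617, 0.0708 or 0.0645 in the same test. In libraries 1 to 3 the fold change was 0.05 ± 0.11 (adjusted p = 0.929, edgeR), and the difference between the sets was -0.46 ± 0.16 (adjusted p = 0.0563, edgeR), which did not pass the threshold.

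Ythdf1, Ythdf2 and Thumpd1 also had intervene libraries 4 to 6 below control libraries 4 to 6 without overlap, as 42.3% of all genes had non-overlapping ranges in that comparison. Ythdf1 had 57.5 to 61.7 CPM in intervene against 66.1 to 71.5 in control libraries of this set (adjusted p = 0.0956, edgeR). Ythdf2 had 31.6 to 36.4 CPM in intervene against 36.5 to 43.0 in control libraries (adjusted p = 0.109, edgeR). None of the 3 passed the test. In the same libraries 9 of 10 thalamic neuron markers, 5 of 6 oligodendrocyte markers and 3 of 5 astrocyte markers were higher in intervene than in control. So were 6 of 7 choroid plexus, 5 of 5 ependymal and 4 of 5 erythroid markers and 1 of the 2 neutrophil markers tested, while 2 of 5 general neuronal markers and 1 of 6 microglial markers were lower. Pyramidal neuron and endothelial markers had 0 called. The neutrophil list had 5 genes, and the 2 tested, S100a8 and S100a9, were low, with at most 3.35 and 4.87 CPM in any library. The general neuronal list summed to 4690 to 5946 CPM in intervene libraries 4 to 6 and 7200 to 7791 CPM in control libraries 4 to 6. Oligodendrocyte markers summed to 13769 to 15170 CPM in intervene and 6741 to 7543 CPM in control libraries of the set. Their part in the Ythdf3 difference was not tested.

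In libraries 4 to 6, intervene set against model called 0 members where 5.71% of all genes were called, 3.66% higher and 2.05% lower. Mettl3 came nearest, with 17.6, 19.6 and 19.2 CPM in intervene libraries 4, 5 and 6, against 14.4, 14.1 and 17.1 CPM in model libraries 4, 5 and 6. The fold change was 0.31 ± 0.13 (adjusted p = 0.171, edgeR). Ranges did not overlap for 4 of the 10 genes, against 28% of all genes, with intervene above model for Mettl3 and Wtap and below it for Thumpd1 and Ythdf1. The remaining within-set comparisons, model against control in either set and intervene against model or control in libraries 1 to 3, also called 0 members, with 0% of all genes called in each. Ythdf3 had 54.8, 55.9 and 50.2 CPM in model libraries 4, 5 and 6, all below the 67.5, 68.6 and 56.1 CPM of control libraries 4, 5 and 6, where 19.8% of all genes had non-overlapping ranges. Its fold change was -0.26 ± 0.11 (adjusted p = 0.47, edgeR). In libraries 1 to 3 Mettl14 had non-overlapping ranges, at 20.9 to 21.6 CPM in intervene libraries 1 to 3 and 19.5 to 20.7 in model libraries 1 to 3, with both below the 23.3 to 23.7 CPM of control libraries 1 to 3. Ranges did not overlap in libraries 1 to 3 for 8.52% of all genes in intervene against model, 13.7% in intervene against control and 9.93% in model against control. Neither difference from control passed the test (adjusted p = 0.692 for intervene and 0.825 for model, edgeR).

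The effect of intervene over control in libraries 4 to 6 minus that in libraries 1 to 3 was called for 2 of the 10 genes, Mettl3 and Mettl14, against 17.9% of all genes, a share near the background and so no result about these genes as a set. The calls also depended on the processing: of 9 other settings, Mettl3 was called in 3 and Mettl14 in 2. For Mettl3 intervene lay above control in libraries 4 to 6 (0.21 ± 0.13) and below it in libraries 1 to 3 (-0.37 ± 0.13). Neither value passed alone, and their difference was 0.59 ± 0.19 (adjusted p = 0.0384, edgeR). Mettl3 had 17.6, 19.6 and 19.2 CPM in intervene libraries 4, 5 and 6, against 18.9, 14.6 and 15.1 CPM in control libraries 4, 5 and 6. In the first set it had 12.7, 16.0 and 12.6 CPM in intervene libraries 1, 2 and 3, against 19.98, 16.6 and 16.7 CPM in control libraries 1, 2 and 3. Intervene was below control without overlap in libraries 1 to 3, as for 13.7% of all genes, and the ranges overlapped in libraries 4 to 6.

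Mettl14 showed a difference of 0.39 ± 0.13 between the sets (adjusted p = 0.0481, edgeR). It had 22.8, 24.3 and 19.2 CPM in intervene libraries 4, 5 and 6, against 18.9, 17.7 and 19.4 CPM in control libraries 4, 5 and 6. In libraries 1, 2 and 3 it had 21.6, 21.1 and 20.9 CPM in intervene, against 23.3, 23.3 and 23.7 CPM in control. Intervene libraries overlapped control libraries in the set numbered 4 to 6 and lay below them in the other. Both calls were near the threshold: over 18 fits that each left out 1 library, Mettl3 stayed called in 11 and Mettl14 in 2. Mettl3 lost its call without control library 1, 5 or 6 or intervene library 1, 3, 5 or 6 (adjusted p = 0.0581 to 0.102, edgeR). Mettl14 kept its call without model library 4 or intervene library 6, and without any of the 16 others its adjusted p was 0.0517 to 0.123. In the same difference 9 of 10 thalamic neuron, 5 of 5 ependymal, 3 of 6 oligodendrocyte, 2 of 5 astrocyte, 2 of 7 choroid plexus and 2 of 5 erythroid markers were called higher, and 2 of 5 general neuronal and 2 of 5 endothelial markers lower. Their part in it was not tested. No member was called in the same kind of difference for intervene over model (0.352% of all genes) or model over control (0%).

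**Figure D3:**
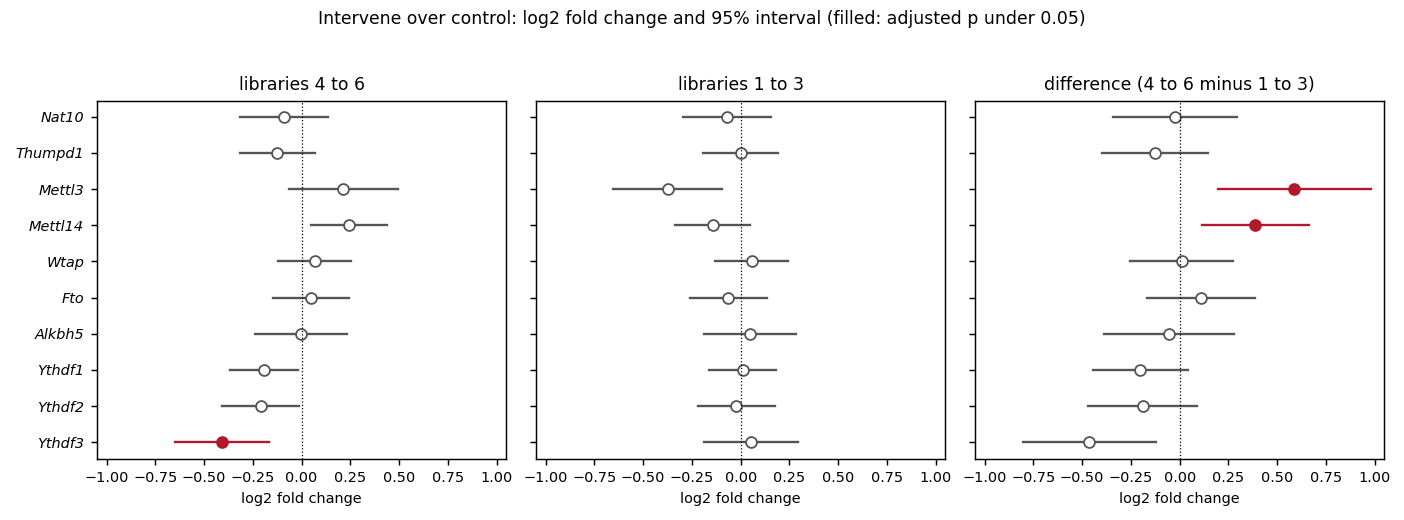
Log2 fold change of intervene over control with its 95% interval for the 10 genes, in libraries 4 to 6, in libraries 1 to 3 and as the difference between the sets. Filled red points passed an adjusted p of 0.05: Ythdf3 at -0.41 in libraries 4 to 6, and Mettl3 at 0.59 and Mettl14 at 0.39 in the difference.

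Mettl3 overlaps Tox4, which lies on the opposite strand, in 933 of its 5076 exonic bases (GENCODE M21). The sources used here do not state whether counting used strand, so reads in that stretch cannot be assigned to one gene. In intervene over control the fold change of Tox4 was -0.26 ± 0.09 in libraries 4 to 6 (adjusted p = 0.0361, edgeR) and -0.03 ± 0.09 in libraries 1 to 3, and the difference between the sets was -0.23 ± 0.12 (adjusted p = 0.204, edgeR), against 0.21, -0.37 and 0.59 for Mettl3. Between the sets of the intervene group Tox4 went the same way as Mettl3, with 0.22 ± 0.09 for Tox4 (adjusted p = 0.0999, edgeR) and 0.45 for Mettl3. In the other groups they went opposite ways. Tox4 was higher in libraries 4 to 6 by 0.45 ± 0.09 in control (adjusted p = 0.000865, edgeR) and 0.29 ± 0.09 in model (adjusted p = 0.0278, edgeR). Mettl3 had -0.14 in control and -0.05 in model, neither of them called. The part of shared reads in the Mettl3 values was not tested. The readers Ythdf1, Ythdf2 and Ythdf3 share no run of 50 bases with each other, while 7.49% of such runs of Ythdf2 and 6.36% of Wtap occur in other genes, so those counts carry that uncertainty.

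Setting libraries 4 to 6 against 1 to 3 inside each group shows where the sets part. These are differences between sets that were noticed in the data, given as a description. In the control group 2 of the 10 genes were called, against 38.2% of all genes. Ythdf3 was higher in control libraries 4 to 6 at 64.1 ± 6.89 CPM, against 47.3 ± 4.92 CPM in control libraries 1 to 3 (SD, n = 3 each), a log2 fold change of 0.44 (adjusted p = 0.00659, edgeR). Mettl14 was lower at 18.7 ± 0.871 CPM, against 23.4 ± 0.23 CPM, a log2 fold change of -0.33 (adjusted p = 0.0099, edgeR; 0.0501 without control library 5). For both genes the 3 libraries of each set did not overlap, as for 52% of all genes. In the same contrast 8 of 10 thalamic neuron, 5 of 6 oligodendrocyte, 5 of 5 ependymal, 3 of 5 astrocyte, 3 of 7 choroid plexus and 3 of 5 erythroid markers were lower. In turn 6 of 9 pyramidal neuron, 4 of 5 general neuronal and 2 of 6 microglial markers were higher, and the part of these markers in both differences was not tested.

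In the intervene group 1 member was called, Mettl3, against 14.9% of all genes. It was higher in intervene libraries 4 to 6 at 18.8 ± 1.06 CPM, against 13.7 ± 1.94 CPM in intervene libraries 1 to 3 (SD, n = 3 each), a log2 fold change of 0.45 (adjusted p = 0.0311, edgeR). Without intervene library 1, 3, 5 or 6 the adjusted p was 0.0922 to 0.118. It was 0.109 when scaled by library totals alone, 0.125 on log2(FPKM + 1) and 0.0753 in a fit of only the compared libraries. In the same contrast 3 of 6 oligodendrocyte, 3 of 5 endothelial and 1 of 10 thalamic neuron markers were lower, and 2 of 5 astrocyte, 1 of 5 general neuronal and 1 of 6 microglial markers and both neutrophil markers tested were higher. Their part in the Mettl3 difference was not tested. The model group had 0 called members, against 18.7% of all genes. Averaged over the groups, 1 of the 10 genes was called, Alkbh5, against 49.6% of all genes. Alkbh5 had 37.8 ± 3.52 CPM in the 9 libraries numbered 4 to 6, against 45.6 ± 3.4 CPM in the 9 numbered 1 to 3, a log2 fold change of -0.27 ± 0.06 (adjusted p = 0.00267, edgeR). The log2 fold change was -0.29 in intervene, -0.28 in model and -0.24 in control. Its ranges did not overlap in model libraries (37.9% of all genes) or control libraries (52%), while those of the 9 and 9 libraries did, as for all but 4.18% of genes. Over the groups 5 of 6 oligodendrocyte, 7 of 10 thalamic neuron, 6 of 7 choroid plexus, 5 of 5 ependymal, 4 of 5 erythroid and 3 of 5 endothelial markers were also called lower, and 7 of 9 pyramidal neuron, 4 of 5 general neuronal and 3 of 6 microglial markers and both neutrophil markers tested were higher. Astrocyte markers were divided, with 2 higher and 3 lower of 5. The oligodendrocyte list had sums of 6741 to 15170 CPM in the libraries numbered 4 to 6, against 14990 to 21873 CPM in those numbered 1 to 3. The part of these lists in the Alkbh5 difference was not tested. Nat10 had a fold change of 0.14 ± 0.06 over the groups (adjusted p = 0.0691, edgeR).

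**Figure D4:**
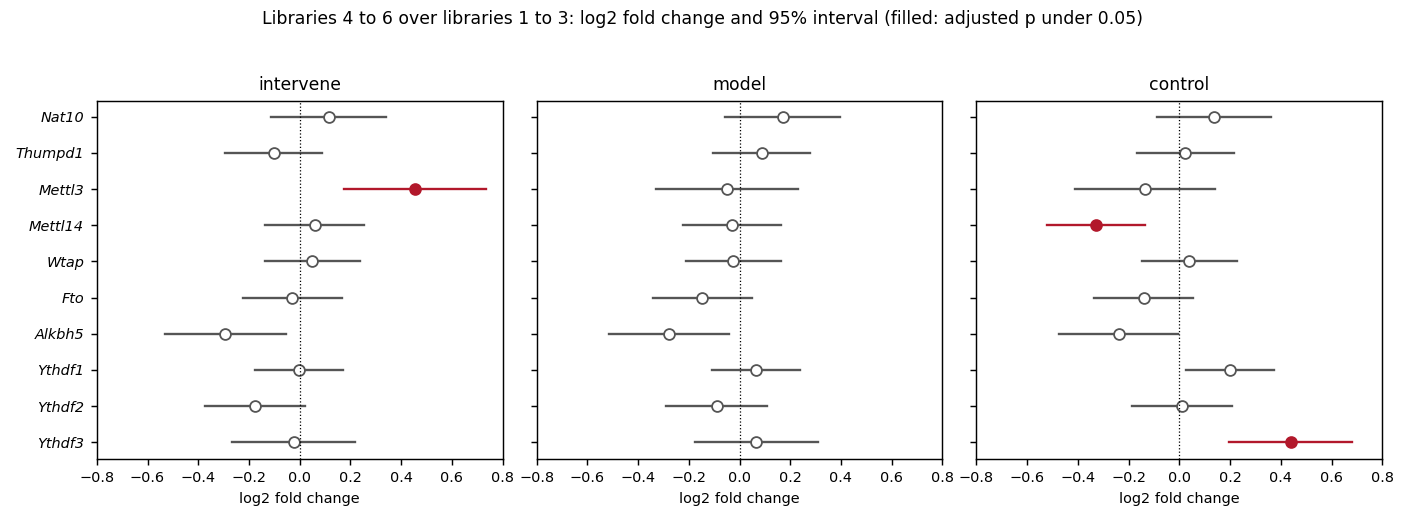
Log2 fold change of libraries 4 to 6 over libraries 1 to 3 with its 95% interval for the 10 genes in the intervene, model and control groups. Filled red points passed an adjusted p of 0.05: Mettl3 (0.45) in intervene, and Ythdf3 (0.44) and Mettl14 (-0.33) in control.

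By level per length, the deposited FPKM placed Fto first at 21.03 ± 1.86 (SD, n = 18), then Ythdf1 at 9.89 ± 0.79, Thumpd1 at 9.50 ± 0.92, Ythdf2 at 4.66 ± 0.48 and Ythdf3 at 4.39 ± 0.69. Mettl14 at 3.98 ± 0.42, Alkbh5 at 3.47 ± 0.51 and Wtap at 3.09 ± 0.26 followed, with Nat10 at 1.32 ± 0.13 and Mettl3 at 1.00 ± 0.14 last. The ranges of neighbours overlapped in this order except between Fto and Ythdf1, Thumpd1 and Ythdf2, and Wtap and Nat10. The order depends on the gene length. All 18117 lengths recovered from the deposited FPKM are even, and the one for Malat1 is 13966 bases against 6983 in GENCODE M21. The absolute FPKM may therefore be low. No common factor held for the members: the deposited length was 9018 bases for Fto against 13031 in GENCODE M21, and 16234 for Mettl3 against 5076. Ratios between genes thus depend on the lengths too. The counts were made on GRCm39, while the GENCODE M21 lengths are from GRCm38. With GENCODE M21 lengths, Ythdf1 (18.9 ± 1.51 FPKM), Thumpd1 (18.3 ± 1.77) and Fto (14.6 ± 1.29) led and Nat10 was lowest (2.30 ± 0.23). In FPKM on those lengths only Wtap and Mettl3 were neighbours whose ranges did not overlap, and in TMM-scaled CPM per kilobase on the same lengths Fto and Ythdf3 did not overlap either. On both scales Nat10 and Mettl3 were in the lower part of the set. With GENCODE M21 lengths Mettl14 (2.81 ± 0.30 FPKM) came between them, below Mettl3 (3.20 ± 0.44).

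**Figure D5:**
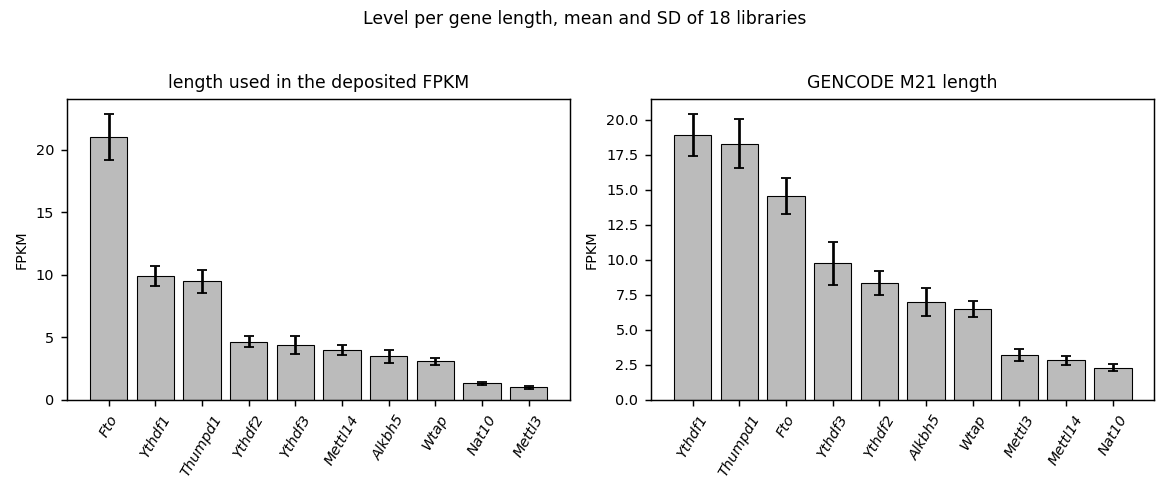
Mean FPKM (vertical axis from 0) of the 10 genes in descending order, with the SD of 18 libraries, using the lengths in the deposited FPKM (left) and GENCODE M21 lengths (right). Fto leads on the left at 21.03 and comes after Ythdf1 and Thumpd1 on the right at 14.6.

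Genes whose pattern over libraries was most like that of Nat10 were ranked by the lower of 2 Pearson correlations of log2 CPM, one over the 9 libraries numbered 4 to 6 and one over the 9 numbered 1 to 3, among 15172 genes. Ergic1 led at 0.813, then Snx14 at 0.786, Zfp318 at 0.758, Grid1 at 0.746 and Camk1g at 0.744. Of the other members Thumpd1 came highest, at rank 663. These correlations share the groups, the depth and the cell makeup of the libraries and are given as a description. Among pairs of members in known complexes or families, none of the correlations over 9 libraries passed Benjamini-Hochberg adjustment over 32 tests. The 9 libraries hold all 3 groups and the permutation ignored group, so r and rho include any difference between groups. In libraries 4 to 6, Ythdf1, Ythdf2 and Ythdf3 were each higher in every control than in every intervene library. The highest Pearson's r was between Ythdf1 and Ythdf3 in libraries 4 to 6, at 0.757 (exact permutation p = 0.0186, adjusted p = 0.198), Spearman's rho of 0.783 (exact permutation p = 0.0172, adjusted p = 0.198), and an r of 0.668 without the 2 libraries farthest from the median. In libraries 1 to 3 its r was 0.327 (exact permutation p = 0.396). The highest rho was between Ythdf2 and Ythdf3 in libraries 4 to 6, at 0.833 (exact permutation p = 0.00827, adjusted p = 0.198), with an r of 0.654 (exact permutation p = 0.0537, adjusted p = 0.344) and an r of 0.722 without the 2 farthest libraries. In libraries 1 to 3 its rho was 0.167 (exact permutation p = 0.678). Mettl3 and Mettl14 gave an r of 0.548 in libraries 4 to 6 and 0.478 in libraries 1 to 3 (exact permutation p = 0.135 and 0.195). Nat10 and Thumpd1 gave 0.422 and 0.376 (exact permutation p = 0.252 and 0.313).

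Other RNA modification factors, a list of 61 genes of which 60 were tested, had 0 called genes in each of the 3 comparisons over all libraries (0, 7 and 0 with an unadjusted p under 0.05 for intervene against model, intervene against control and model against control). In intervene against control in libraries 4 to 6, 4 were higher and 8 were lower, against 14.7% of all genes higher and 11.2% lower. Mettl16, a methyltransferase of U6 snRNA and of the transcript for S-adenosylmethionine synthetase, was higher, with 42.6, 33.4 and 35.0 CPM in intervene libraries 4, 5 and 6 against 22.7, 22.9 and 23.9 CPM in control libraries 4, 5 and 6. Its log2 fold change was 0.68 ± 0.11 (adjusted p = 0.000703, edgeR). Lower genes included the readers Ythdc2 (-0.58, adjusted p = 0.00363, edgeR) and Fmr1 (-0.68, adjusted p = 0.00442), the writer subunit Zc3h13 (-0.50, adjusted p = 0.00588) and the pseudouridine synthase Trub1 (-0.38, adjusted p = 0.00975). The median log2 fold change was -0.01 for the list and 0.00 for all genes. Mettl16 was also lower in control libraries 4 to 6 than in control libraries 1 to 3, with a log2 fold change of -0.98 (adjusted p = 2.2e-05, edgeR), where the list had 9 higher and 7 lower, against 18.6% of all genes higher and 19.6% lower. In libraries 1, 2 and 3 Mettl16 had 37.1, 34.2 and 38.8 CPM in intervene, against 46.3, 43.9 and 47.0 CPM in control, the reverse direction. The effect of intervene over control differed between the sets for Mettl16 (0.996, adjusted p = 0.00144, edgeR), Fmr1 (-0.84, adjusted p = 0.0153) and Ythdc2 (-0.56, adjusted p = 0.0396). That difference called 3 higher and 5 lower of the list, against 17.9% of all genes. The part of the cell type markers in it was not tested.

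The small-subunit processome, the 90S assembly on which NAT10 acts, was described by 31 genes, all tested. In edgeR 0 of 31 were called over all libraries, and 0, 1 and 0 had an unadjusted p under 0.05 in the same 3 comparisons. In intervene against model in libraries 4 to 6, Mphosph10, an assembly factor of the U3 particle, was the 1 gene of 31 called, against 5.71% of all genes, and was higher, with 18.4, 21.8 and 17.99 CPM in intervene libraries 4, 5 and 6, against 11.9, 11.9 and 13.8 CPM in model libraries 4, 5 and 6 (log2 fold change 0.63 ± 0.16, adjusted p = 0.0312, edgeR). Without model library 4, 5 or 6 or intervene library 5 the adjusted p was 0.0513 to 0.132. In libraries 1, 2 and 3 Mphosph10 had 9.67, 14.2 and 10.6 CPM in intervene, against 15.8, 11.6 and 13.0 CPM in model. The difference between the sets was 0.86 ± 0.23 (adjusted p = 0.0852, edgeR). In intervene against model in libraries 4 to 6, 6 of 10 thalamic neuron, 3 of 5 astrocyte, 2 of 6 oligodendrocyte and 2 of 5 erythroid markers were higher. So was 1 of the 2 neutrophil markers tested. Their part in the Mphosph10 difference was not tested. In intervene against control in libraries 4 to 6, the box C/D proteins Nop56 (0.33) and Nop58 (0.34) and Imp4 (0.37) were higher and Pwp2 (-0.34) was lower (adjusted p = 0.0162, 0.0402, 0.0419 and 0.0255, edgeR). That is 3 higher and 1 lower of 31, against 14.7% of all genes higher and 11.2% lower, so neither count exceeds the background. Each of these 4 lost its call without control library 5 and without intervene library 6, among others (adjusted p = 0.0508 to 0.175 for those libraries, edgeR).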

How the data were processed

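RNA was extracted with TRIzol and captured with oligo(dT) per the labels' protocols. Reads were aligned with HISAT2 and counted with featureCounts on GRCm39, per the submitters' processing notes, and neither their versions nor a strand setting could be read from those notes. The authors deposited raw counts and FPKM for 50559 genes in 18 libraries. The deposited FPKM equal the count over a gene length and the library total for 18117 of 18117 genes counted in every library (relative tolerance 1e-06), so FPKM is no independent measurement. No pair of libraries of a group agreed within sampling noise (smallest chi-square per degree of freedom 11.4 over genes with at least 20 counts).

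The 18452 genes left by filterByExpr were scaled by TMM and tested over all libraries together with the quasi-likelihood F test (edgeR 4.0.16, R 4.3.3). One fit had a mean per group and the other a mean per group and set of replicate numbers. Benjamini-Hochberg adjustment ran over all genes tested, with a threshold of 0.05. Standard errors are the size of the log2 fold change over the square root of F. The fits were also run on data simulated without the split between the sets of libraries. That run therefore does not cover the split. The 10 genes, the other lists and the tests were chosen with earlier results of these data known. Of the other lists, genes called in a comparison were eligible to be named, at most 4 per direction by p, or the 1 of lowest p where none was called, and not every eligible gene is printed. For likeness to Nat10 the 5 genes with the highest lower correlation were named. Deviations from the group mean correlated between model and control libraries of the same number (r from 0.185 to 0.631, 6 of 6 over 0.1). The own number was the best match in only 3 of 6. The split between the sets stays in these deviations, so the correlations cannot show pairing or its absence. The replicate block was also fitted. Alternatives were other scalings, filters and tools, thinned counts, log2(FPKM + 1) and log2(FPKM + 0.1), and leaving out each library. Sequences are from RefSeq (GRCm38.p6) and exon overlaps from GENCODE M21. No gene coordinates were carried between builds.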

Additional observations from a re-analysis of the deposited data

Results flagged for a closer look

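Both results below are differences between the sets of libraries in the effect of intervene over control, each by a test of the difference itself in edgeR's quasi-likelihood fit. For Mettl3 the effect was 0.59 higher on the log2 scale in libraries 4 to 6 than in libraries 1 to 3. For Mettl14 it was 0.39 higher. In that difference 17.9% of all genes were called, so 2 of 10 is near the background. Mettl3 was called in 3 of 9 other settings and in 11 of 18 fits that left out 1 library, and Mettl14 in 2 of 9 and 2 of 18. No library lay far from the others of its group for any of the 10 genes in 30 groups of 6 examined with Dixon's criterion, of which chance would flag about 1 in 20. Each group of 6 holds both sets, and a split between them widens its range. A library far from the others of its own set could therefore be missed.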

How the results depend on the processing

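No member fold change that was called turned its sign in any alternative run. Over all libraries, 0 of the 10 genes were called in each of the 3 comparisons under every alternative run, the replicate block included, and the block changed no call there. Of the single members' fold changes, 1394 kept their side of the threshold under other settings, 65 changed sign while not called in either fit, 5 became called and 16 lost the call, and the cause was not tested. Leaving out 1 library gave 2684, 149, 16 and 31 in the same order.

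The count called in the difference between sets for intervene over control (2) was 1 with DESeq2 size factors, and 0 with library totals, without the filter, with limma-trend on log2(FPKM + 1), with only the libraries compared, with thinned counts and with a replicate block within the sets, and ranged from 0 to 2 when 1 library was left out. Same-numbered intervene and control libraries correlated above 0.1 in 3 of 6 pairs. With the split between the sets left in, that cannot decide on pairing. For intervene over control in libraries 4 to 6 (1) the count was 2 with library totals and with log2(FPKM + 1), and 0 to 1 with 1 library left out. For the sets in the intervene group (1) it was 0 with library totals, with log2(FPKM + 1) and with only the libraries compared, and 0 to 2 with 1 library left out. For the sets over all groups (1) it was 2 with log2(FPKM + 1) and 1 to 4 with 1 library left out, for the control group (2) 1 to 3, and for the model group (0) 0 to 1. Of neighbours in level, 3 pairs did not overlap in the deposited FPKM, 1 in FPKM on GENCODE M21 lengths and 2 in TMM-scaled CPM per kilobase on those lengths. With FPKM in place of TMM-scaled counts 1 pair of members passed the adjustment, Ythdf1 and Ythdf3 in libraries 4 to 6 (r = 0.897, exact permutation, adjusted p = 0.0393). Its rho of 0.8 did not pass (exact permutation, adjusted p = 0.111). FPKM leaves out the TMM scaling, and in that set r rose for the other pairs as well, for Nat10 and Thumpd1 from 0.422 to 0.717. Only Mettl3 with Mettl14 and Mettl3 with Wtap fell. With 3 libraries a group and set, standard errors were 0.0819 to 0.133 on the log2 scale, which limits what could be detected.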
